A study of Homo sapiens with 4 samples.

Results

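The CLIP genes (CLIP1, CLIP2, CLIP3 and CLIP4) were examined in HEK293, a long-established cell line of human embryonic kidney origin, after knockdown of CNOT4. They were found by exact symbol, and all 4 were present among 20457 listed features. CLIP3 was chosen by its measured log2 fold change, one of the largest increases after the knockdown, so that change is described here and not tested. CLIP1, CLIP2 and CLIP4 were taken by family name, with earlier results of these data known. CNOT4 encodes a RING-finger ubiquitin ligase associated with the CCR4-NOT deadenylase complex, and the study asked whether it shapes how codon choice affects expression. Cells of the group siCNOT4 received small interfering RNA (siRNA) against CNOT4, and cells of the group siControl received a negative control siRNA, both at 10 nM for 72 h. Each group had 2 libraries, prepared by poly(A) selection with a stranded kit. The labels call the siControl cells WT and the siCNOT4 cells CNOT4 knockdown, and name no other genetic change. Nothing in them says that the 2 libraries of a group came from separate cultures, so p-values measure only the spread between these libraries, which may be technical.

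CLIP proteins carry CAP-Gly domains, small glycine-rich modules that bind the tyrosinated C-terminal tail of alpha-tubulin and the similar tail of end-binding (EB) proteins. CLIP1 (CLIP-170) is the founding protein of the class that tracks growing microtubule ends, where it recruits dynactin and promotes rescue of shrinking microtubules. CLIP2 (CLIP-115) is a shorter relative that is abundant in brain and lies in the region deleted in Williams-Beuren syndrome. CLIP3 (CLIPR-59) has ankyrin repeats, is attached to the trans-Golgi network and plasma membrane through palmitoylation, binds AKT and is best known from brain, muscle and adipocytes. CLIP4 also combines ankyrin repeats with CAP-Gly domains.

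The CLIP genes lie on 4 chromosomes. In GENCODE 29 (GRCh38), CLIP1 spans 122271432 to 122422632 on chromosome 12 (minus strand), and CLIP2 spans 74289475 to 74405943 on chromosome 7 (plus strand). CLIP3 spans 36014660 to 36033343 on chromosome 19 (minus strand), and CLIP4 spans 29097705 to 29189643 on chromosome 2 (plus strand). The authors' files carry no coordinates, and the build named in the submitters' processing notes is hg19, so these positions serve only to place the genes.

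Promoter sequence is shown for CLIP3 and CLIP4, the CLIP genes with the largest fold changes. RefSeq (GRCh38.p14) gave 7 windows of 250 bases before an annotated start for the 4 genes. CLIP3 had 2 such starts and CLIP4 had 3. The CLIP3 window shown precedes its outer start (chr19:36032874-36033123, minus strand), and the CLIP4 window is the one with the most CpG dinucleotides (chr2:29115165-29115414, plus strand). Which starts were used in these cells was not measured. In CLIP3 the capitals spell the palindromic NRF1 motif exactly as it was searched. In CLIP4 they mark a match to GCGNGGGCG, the motif of EGR factors.
CLIP3: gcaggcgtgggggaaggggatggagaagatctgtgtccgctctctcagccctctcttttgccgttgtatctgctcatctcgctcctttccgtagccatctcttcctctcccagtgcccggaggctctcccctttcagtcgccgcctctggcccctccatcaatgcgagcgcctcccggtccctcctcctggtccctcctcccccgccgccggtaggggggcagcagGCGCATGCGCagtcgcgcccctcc
CLIP4: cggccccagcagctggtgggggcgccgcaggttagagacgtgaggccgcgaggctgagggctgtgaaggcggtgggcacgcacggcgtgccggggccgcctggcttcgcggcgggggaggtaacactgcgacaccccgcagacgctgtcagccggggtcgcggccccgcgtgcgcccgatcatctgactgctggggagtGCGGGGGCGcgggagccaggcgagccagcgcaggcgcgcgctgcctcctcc

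Motifs were searched on both strands of 35116 windows. The NRF1 motif was in 1.03% of all windows and, among the 7 CLIP windows, only in the CLIP3 window shown. The EGR motif was in 8.41% of all windows and in the CLIP4 window shown and the CLIP2 window. The GC box GGGCGG was in 42.6% of all windows. It was found in the windows of CLIP1 and CLIP2 and in the window before the inner start of CLIP3, and in none of the 3 CLIP4 windows. The EGR and GC box motifs can overlap, and did so in CLIP2. TGACGTCA (CRE) and TGANTCA (AP-1) were in 1.65% and 6.57% of all windows and in none of the 7 CLIP windows. The windows shown had 66.8% (CLIP3) and 76.4% (CLIP4) G+C and held 18 and 33 CpG, against medians of 58.0% and 11 over all windows. CLIP1 had the highest G+C of the CLIP windows (82.8%, 41 CpG). The CLIP2 window had 75.6% G+C.

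Several facts of the whole series bear on every value below. TPM (a transcript level per length, scaled to sum to 1000000 in each library) was higher in siCNOT4 for 81.2% of 14208 tested features. The median log2 fold change on the log2(TPM + 1) scale was 0.50, and it was -0.04 after TMM scaling and 0.02 after quantile normalization, so changes are also given relative to that median. Limma called 1608 features higher and 184 lower, against 585 and 821 after TMM scaling and 1026 and 1150 after quantile normalization. The siControl replicates differed by a median of 0.38, replicate 1 being higher, with an SD of 0.48 across features. The siCNOT4 replicates differed by -0.03 with an SD of 0.20. The smallest whole read numbers that fit the TPM values summed to between 25.2 and 28.4 (in units of 1000000 reads) per library. CNOT4 itself had 6.43 and 4.73 TPM in siControl and 3.38 and 3.81 in siCNOT4, groups that did not overlap (log2 fold change -0.51, SE 0.26, limma adjusted p 0.184). Of 9 genes typical of HEK293, 8 had at least 1 TPM in every library and NEFM stayed below 1. Their summed level was 1632 to 1940 TPM in siControl and 1378 to 1383 in siCNOT4, and VIM, the most abundant of them in siControl, was called lower (917 and 650 against 369 and 354 TPM, limma adjusted p 0.0288). Of 10 markers of leukocytes, hepatocytes, fibroblasts, neurons and glia, 8 stayed below 1 TPM throughout and none was at 0 in all 4 libraries. The summed level of these 10 was 1.21 to 2.32 TPM in siControl and 4.07 to 4.79 in siCNOT4, RBFOX3 and GFAP being the 2 that exceeded 1 TPM. Whether either difference bears on the CLIP levels was not tested. In bulk RNA, fewer cells with a transcript and less transcript per cell cannot be told apart.

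**Figure D1:**
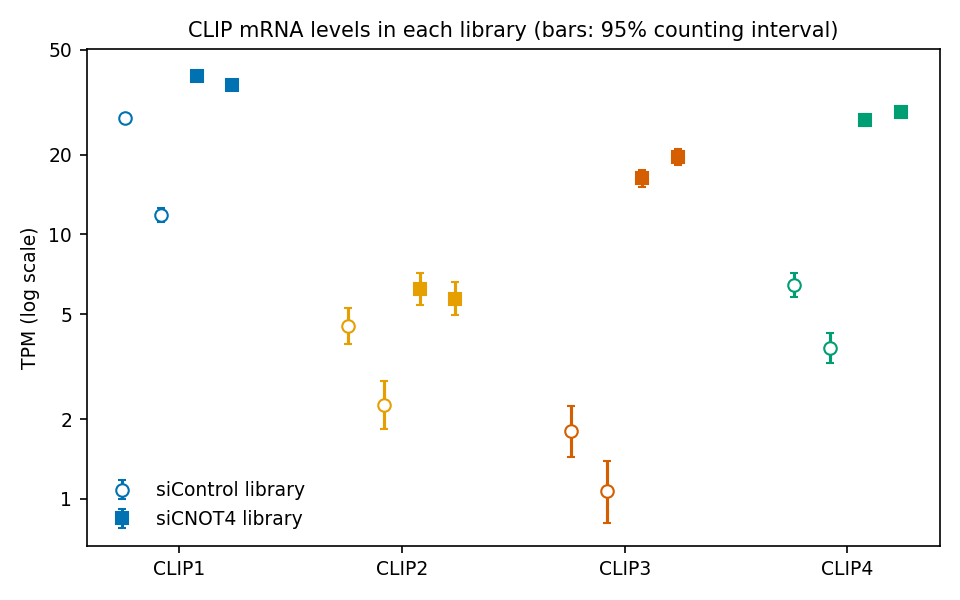
TPM of each CLIP gene in each library on a log axis; open circles are siControl and filled squares siCNOT4 libraries, replicate 1 left of replicate 2, and bars are exact Poisson intervals for counting error at 95%. CLIP3 lay between 1.07 and 1.81 TPM in siControl and 16.3 to 19.6 in siCNOT4; CLIP4 lay between 3.72 and 6.46 and between 27.2 and 29.

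CLIP3, the Golgi- and membrane-bound member, had the lowest TPM of the CLIP genes in siControl and a TPM above that of CLIP2 in siCNOT4. It had 1.81 TPM (siControl replicate 1), 1.07 (siControl replicate 2), 16.3 (siCNOT4 replicate 1) and 19.6 (siCNOT4 replicate 2). Both siCNOT4 libraries were far above both siControl libraries, by 9.01-fold for the closest pair and 18.4-fold for the most distant. The mean was 1.44 ± 0.523 TPM in siControl and 18.0 ± 2.36 in siCNOT4 (SD, n = 2 each), a ratio of 12.5. The log2 fold change was 2.97 (SE 0.29), or 2.47 relative to the median of all features. This change chose the gene, so it has no test. Ordered by log2 fold change, CLIP3 was at place 2 of 14208, between EGR1 (3.07) and TFPI2 (2.89), the features just above and just below it. The order of CLIP3 and TFPI2 turned with a pseudocount of 0.1 (3.59 against 3.84) and with voom (3.39 against 3.70), and the TPM ratio of TFPI2 was 15.7.

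The TPM values of CLIP3 corresponded to at least 85 and 57 reads in siControl and at least 729 and 868 in siCNOT4. The 95% counting intervals for siControl replicates 1 and 2 ran from 1.44 to 2.24 and from 0.809 to 1.38 TPM, and those for siCNOT4 from 15.1 to 17.5 and from 18.3 to 21.0 TPM. Such intervals cover counting error only, since PCR copies were not told apart by molecular identifiers. The siControl replicates had a ratio of 1.69 and the siCNOT4 replicates a ratio of 0.830 (replicate 1 over replicate 2). The gap between the groups chose the gene, so it is not weighed against these ratios.

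CLIP4, the other member with ankyrin repeats, rose. It had 6.46 and 3.72 TPM in siControl replicates 1 and 2 and 27.2 and 29 TPM in siCNOT4 replicates 1 and 2. The groups did not overlap, and the closest pair of libraries differed 4.21-fold. The mean was 5.09 ± 1.94 TPM in siControl and 28.1 ± 1.30 in siCNOT4 (SD, n = 2 each), a ratio of 5.53. The log2 fold change was 2.29 (SE 0.32, limma adjusted p 0.0235 over 14208 features), or 1.79 relative to the median of all features, at place 19 in the order of fold changes. Higher calls made up 11.3% of all tested features. The call was lost when either siCNOT4 replicate was left out (limma adjusted p 0.0575 without replicate 1 and 0.0768 without replicate 2), while the log2 fold change stayed at 2.34 and 2.25.

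CLIP1, the dynactin-recruiting plus-end tracker, had the highest TPM of the CLIP mRNAs in every library, but its change did not pass the test. It had 27.5 and 11.9 TPM in siControl and 39.8 and 36.9 TPM in siCNOT4. The siControl replicates differed 2.31-fold, more than the 1.34-fold between siControl replicate 1 and the lower siCNOT4 library. The mean was 19.7 ± 11 TPM in siControl and 38.3 ± 2.03 in siCNOT4 (SD, n = 2 each). The log2 fold change was 1.04 (SE 0.39, limma adjusted p 0.101), or 0.54 relative to the median of all features. Leaving out siControl replicate 1 raised the log2 fold change to 1.61, while leaving out siControl replicate 2 lowered it to 0.47. Its size therefore depended on which siControl library was used. Both of these fits leave 1 siControl library, so no p is given for them.

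CLIP2, the shorter plus-end tracker, moved least. It had 4.52 and 2.27 TPM in siControl and 6.23 and 5.72 TPM in siCNOT4. The groups did not overlap, although the closest pair differed only 1.26-fold and the siControl replicates 1.99-fold. The mean was 3.40 ± 1.59 TPM against 5.98 ± 0.364 (SD, n = 2 each). The log2 fold change was 0.71 (SE 0.32, limma adjusted p 0.141), or 0.21 relative to the median of all features. Without siControl replicate 1 it was 1.09, and without siControl replicate 2 it was 0.34, again from fits that leave 1 siControl library.

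All 4 CLIP genes had both siCNOT4 libraries above both siControl libraries, an arrangement seen in 66.4% of all tested features (77.1% had groups that did not overlap in either direction). Of the 3 genes taken by name, CLIP4 alone was called, against 12.6% of all features called in either direction. All 4 genes also had a higher level in siControl replicate 1 than in replicate 2, with log2 differences of 1.14 (CLIP1), 0.75 (CLIP2), 0.44 (CLIP3) and 0.66 (CLIP4), against 0.38 for the median feature. In siCNOT4 the corresponding differences were 0.11, 0.11, -0.25 and -0.091, so the siCNOT4 replicates were closer to each other for each CLIP gene.

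**Figure D2:**
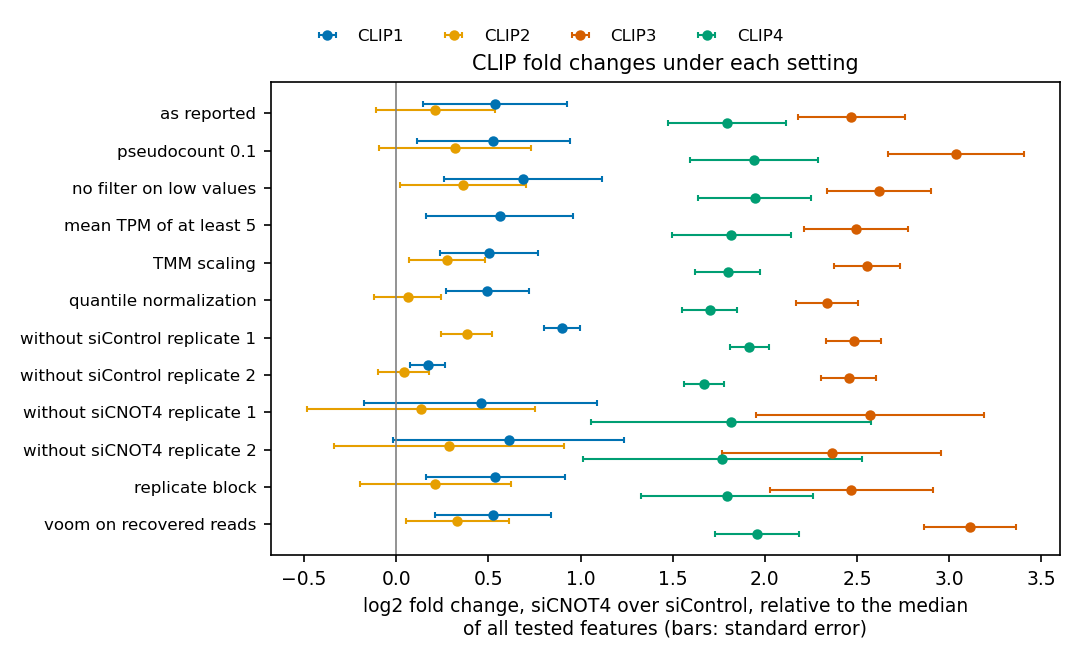
Log2 fold change of siCNOT4 over siControl relative to the median of all tested features (x axis) for each CLIP gene under the reported setting and each alternative (y axis), with standard errors as bars. CLIP3 stayed between 2.34 and 3.11 and CLIP4 between 1.67 and 1.96, while CLIP1 ranged from 0.17 to 0.90 and CLIP2 from 0.041 to 0.38; CLIP2 has no value at the mean TPM filter of 5.

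In TPM, the order of levels within the family differed between the groups. TPM divides by a gene length, and the lengths the authors used are not given in the sources used here. In both siControl libraries the order was CLIP1, CLIP4, CLIP2 and CLIP3 from high to low. In both siCNOT4 libraries it was CLIP1, CLIP4, CLIP3 and CLIP2. In siControl, CLIP4 and CLIP2 were neighbours whose group ranges overlapped (3.72 to 6.46 against 2.27 to 4.52 TPM), and in siCNOT4 no neighbouring ranges overlapped. This order depended on the gene lengths. With the recovered reads divided by the GENCODE 29 exon length of each gene, a calculation added after the data were seen, CLIP3 and CLIP2 were close in siControl (22.5 and 15.1 against 22.3 and 12.7 reads per kilobase), and in siCNOT4 CLIP3 (193 and 230) was above CLIP1 (156 and 143). These exon lengths, all annotated exons of a gene merged, were 18559 (CLIP1), 7315 (CLIP2), 3772 (CLIP3) and 7775 (CLIP4) bases. The lengths implied by the TPM values and these reads were about 8749, 4115, 5368 and 6328 bases, longer than the exon length only for CLIP3. CLIP3 was above CLIP1 only with the exon lengths. The read numbers are the smallest that fit. A common factor for a gene, which would change its place and its implied length, cannot be told. The TPM ratio of 1 gene between libraries is not affected by its length. Its fold change on the log2(TPM + 1) scale is, because the length sets the TPM to which the pseudocount is added.

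The summed level of the family was higher in siCNOT4, with groups that did not overlap. It was 40.3 and 18.9 TPM in siControl and 89.5 and 91.3 TPM in siCNOT4. Without CLIP3 the sums were 38.5 and 17.9 against 73.2 and 71.7 TPM. CLIP3 made up 4.49% and 5.64% of the sum in siControl and 18.2% and 21.5% in siCNOT4. The mean share of CLIP3 was therefore higher by 14.8 percentage points, a difference that follows from the change for which CLIP3 was chosen, and by 24.3 points with the GENCODE lengths. CLIP4 made up 16% and 19.6% in siControl and 30.4% and 31.8% in siCNOT4. The share of CLIP1 went from 68.2% and 62.7% to 44.4% and 40.4%, and that of CLIP2 from 11.2% and 12.0% to 6.97% and 6.27%, although neither gene had a lower TPM in siCNOT4.

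**Figure D3:**
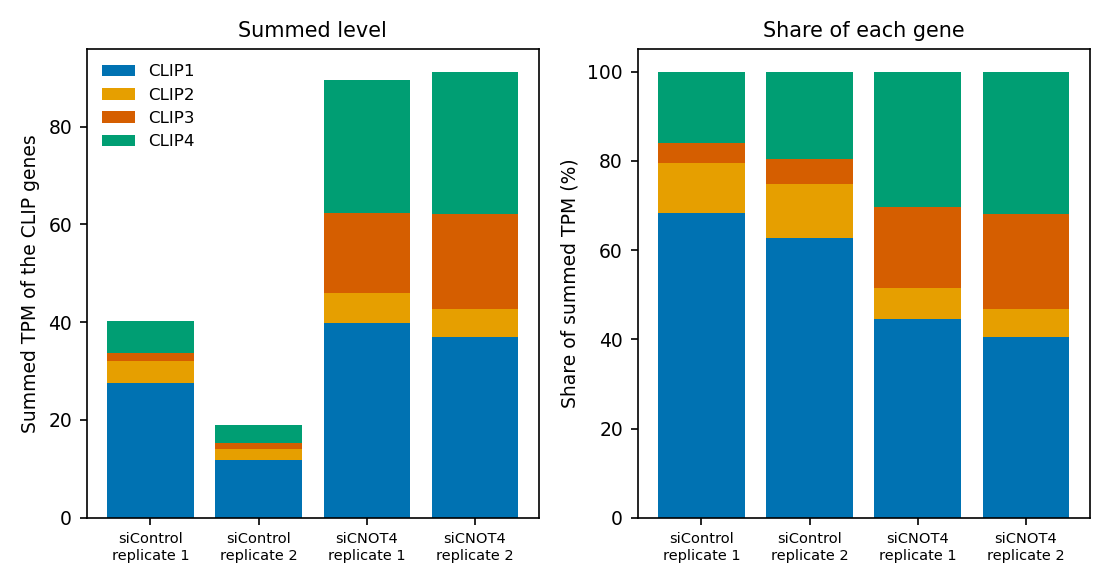
Left, TPM of the CLIP genes stacked to their sum in each of the 4 libraries; right, the share of each gene in that sum in percent. CLIP3 and CLIP4 together took a larger part of a larger sum in both siCNOT4 libraries, and siControl replicate 2 had the lowest sum (18.9 TPM).

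Ratios between the genes taken by name do not change when a library is scaled by a constant factor, which quantile normalization is not. The TPM of CLIP1 was 4.25 and 3.19 times that of CLIP4 in siControl and 1.46 and 1.27 times in siCNOT4. The log2 ratio of CLIP4 to CLIP1 was higher in siCNOT4 by 1.44 and that of CLIP4 to CLIP2 by 1.62, in both cases with groups that did not overlap. For CLIP1 to CLIP2 the groups did not overlap either, with log2 ratios of 2.60 and 2.39 in siControl and 2.67 and 2.69 in siCNOT4. The means were 0.19 apart. An exact two-sided permutation test over the libraries gave p = 0.333 for each of these 3 ratios, the smallest that 2 libraries against 2 allow, so this test could not reach the threshold.

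The transcripts differ in composition, the property the study was concerned with. GC3, the percentage of codons with G or C as their last base, was 74.2% for CLIP3 and 36.3% for CLIP4, the genes with the 2 largest fold changes of the family. It was 50.3% for CLIP1 and 83.9% for CLIP2. Across the 12277 tested genes whose annotated coding sequence was complete, the median was 59.1%. Of those genes, 77.5% had a lower GC3 than CLIP3 and 10.1% a lower GC3 than CLIP4. The coding sequences were 4317 (CLIP1), 3141 (CLIP2), 1644 (CLIP3) and 2118 (CLIP4) bases long, stop codon included, so CLIP1 and CLIP2 are the long members and CLIP3 and CLIP4 the short ones. With 4 genes, these values are a description.

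Among all tested features, the profile of CLIP3 over the 4 libraries was most like those of TFPI2, SDCBP2-AS1 and HIST1H2BC. Likeness was the root mean square difference (RMSD) between log2(TPM + 1) profiles, each centred on its own mean. The RMSD from CLIP3 was 0.060 for TFPI2, an inhibitor of serine proteases, 0.11 for the antisense RNA SDCBP2-AS1 and 0.13 for the histone gene HIST1H2BC. HIST1H2BC had 2.29 and 1.55 TPM in siControl and 17 and 19.3 TPM in siCNOT4. CLIP4 came at place 12 in the same order (RMSD 0.35), CLIP1 at place 2529 and CLIP2 at place 4904. TFPI2 averaged 0.768 TPM in siControl and was among the tested features only through its siCNOT4 level.

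The features most like CLIP4 were SAMD9, SCG3 and MTMR9, with RMSD values of 0.034, 0.062 and 0.073. SAMD9, an interferon-inducible antiviral factor, had 1.38 and 0.486 TPM in siControl and 8.31 and 9.02 TPM in siCNOT4. SCG3, a secretory granule protein, had 0.839 and 0.267 against 5.90 and 6.22 TPM. MTMR9, a myotubularin-related protein without phosphatase activity, had 5.68 and 3.38 against 22.5 and 23.6 TPM. SAMD9 and SCG3 averaged 0.935 and 0.553 TPM in siControl, so they were among the tested features only through their siCNOT4 level. With a mean TPM filter of 5, neither was among the 3 features most like CLIP4. The features most like CLIP1 were RNMT, the mRNA cap methyltransferase, ZNF644 and PTPN14 (RMSD 0.011, 0.013 and 0.013). Those most like CLIP2 were C1GALT1, the RNA helicase gene DDX6 and WDHD1 (RMSD 0.0015, 0.0068 and 0.0073). Likeness over 4 libraries is a description, and no p is given.

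Other proteins with a CAP-Gly domain formed a list of 6 genes, all tested, of which 1 was called (12.6% of all features were called). CYLD, a deubiquitinase that binds microtubules through its CAP-Gly domains, had 15.2 and 7.57 TPM in siControl and 32.6 and 33.4 TPM in siCNOT4 (log2 fold change 1.53, limma adjusted p 0.0455). CEP350, a centrosomal protein, had 16.6 and 6.0 against 26.4 and 26.3 TPM (limma adjusted p 0.0865). KIF13B, a kinesin, had 5.36 and 3.13 against 8.72 and 8.19 TPM (0.0884). The tubulin chaperone genes TBCE and TBCB had log2 fold changes of 0.34 (limma adjusted p 0.134) and -0.42 (0.11), and DCTN1, the dynactin subunit that CLIP1 recruits, had 0.08 (0.735). The median log2 fold change of this list was 0.61, against 0.50 for all features.

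Plus-end partners, which include the EB proteins, CLASPs and the dynein regulators, had 25 listed genes. Of the 23 tested, 1 was called higher and none lower, against 11.3% and 1.3% of all features. The called gene was PAFAH1B1 (LIS1), which regulates dynein and binds CLIP1, with 85.2 and 60.7 TPM in siControl and 154 and 155 TPM in siCNOT4 (log2 fold change 1.09, limma adjusted p 0.0339). MAPRE1 (EB1), the main end-binding partner of CLIP1, had 275 and 206 against 269 and 265 TPM (0.16, limma adjusted p 0.486), and KIF2C, a microtubule-depolymerizing kinesin, had a log2 fold change of 0.34 (0.153). Over the list, the median log2 fold change was 0.71, and 14 members were above and 9 below the median of all features.

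Dynein and dynactin had 19 genes, all tested, with 3 called higher and none lower (11.3% and 1.3% of all features). DYNC1I1, the intermediate chain best known from neurons, had 2.13 and 1.63 TPM against 6.46 and 5.79 TPM (log2 fold change 1.31, limma adjusted p 0.0325). DYNLT3, a light chain, rose by 1.21 (0.0432), and DYNC1I2, the widely expressed intermediate chain, by 1.02 (0.0361). The list's median log2 fold change was 0.47. No dynactin subunit was called.

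Tubulins and the enzymes of the tyrosination cycle, which sets the tail that CAP-Gly domains bind, had 20 tested genes of 21 listed, with 2 called higher and 1 lower (11.3% and 1.3% of all features). The alpha-tubulin TUBA4A had 0.627 and 0.874 TPM in siControl and 4.99 and 6.27 TPM in siCNOT4, and was tested only through its siCNOT4 level (log2 fold change 1.92, limma adjusted p 0.0227). The beta-tubulin TUBB3, best known from neurons, rose by 1.27 (0.0423). TUBB2B fell by 1.01 on the log2 scale (limma adjusted p 0.0288), from 117 and 104 TPM to 52.0 and 56.3. Its near-identical neighbour TUBB2A had a log2 fold change of 0.64 (limma adjusted p 0.0900), and how the authors' counting divided shared reads is not given in the sources used here. The median log2 fold change of this list was 0.38.

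Proteins that bind along the microtubule lattice, with the stathmins, had 12 tested genes of 15 listed, of which 2 were called higher (11.3% of all features). MAP2, a dendritic microtubule-associated protein, had 2.05 and 0.905 TPM in siControl and 9.70 and 9.52 TPM in siCNOT4 (log2 fold change 2.14, limma adjusted p 0.0243). The other was MAP1A (log2 fold change 1.34, limma adjusted p 0.0289), at 0.871 and 0.443 against 2.70 and 3.67 TPM, named after its values were seen because it completes the count, and likewise tested only through siCNOT4. STMN1, a tubulin-sequestering stathmin, had 294 and 351 against 387 and 387 TPM (0.27, limma adjusted p 0.196), and MAP7D1 had a log2 fold change of 0.19 (0.458). Over the list, the median log2 fold change was 0.52.

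Genes linked to CLIP3 in AKT, glucose transporter and death receptor signalling, with the palmitoyl transferases that modify it, had 10 tested genes. Of these, 1 was called higher (11.3% of all features), again CYLD, which also interacts with CLIP3. AKT1 and AKT2, kinases that CLIP3 binds, had log2 fold changes of 0.37 (limma adjusted p 0.316) and 0.45 (0.202). The list's median log2 fold change was 0.74. The relative change of CYLD was 1.03, and 1.00 after TMM scaling, where its call was lost (limma adjusted p 0.0509); it was also lost with a pseudocount of 0.1, with no filter, with a mean TPM filter of 5 and without either siCNOT4 replicate.

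Neuronal genes were listed because CLIP3 is best known from brain. Of 25 listed, 16 were tested, and 7 were called higher and none lower (11.3% and 1.3% of all features). The tested members include REST, which encodes a repressor of neuronal genes and was not called (log2 fold change 1.11, limma adjusted p 0.0966). It is named after its values were seen. SCG3 (log2 fold change 2.21, limma adjusted p 0.0227), MAP2 (given above), SYP (1.36, 0.0358) and INA (1.32, 0.0496) had the largest changes among called members averaging at least 2 TPM. SYP encodes a synaptic vesicle protein and INA an intermediate filament. TUBB3, CHGA and CHGB, the last 2 encoding granins, were the other called members. SNAP25, NEFL and VAMP2 are given after their values were seen, as members without a higher call: SNAP25 had a log2 fold change of -0.18, NEFL of -0.18 and VAMP2 of 0.12, and the other 9 listed genes, with a mean TPM under 1, were not tested. The median log2 fold change of this list was 1.04, but members that were low in siControl entered the test only through their level in siCNOT4, so neither this median nor the count describes all 25 genes. Of the neuronal genes, MAP2 and TUBB3 were also counted in other lists above.

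**Figure D4:**
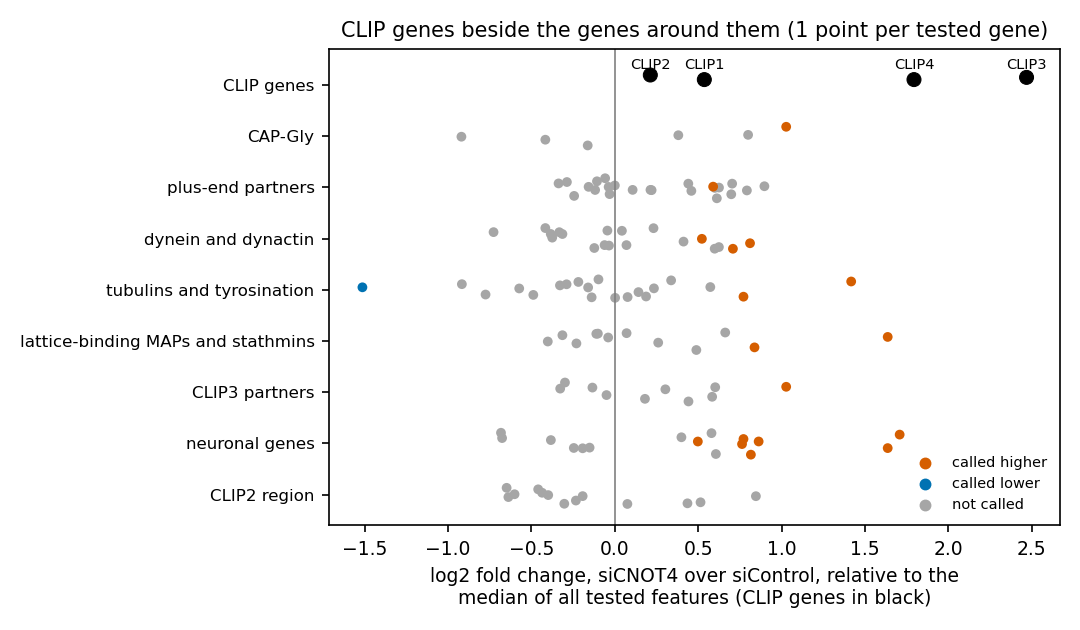
Each point is a tested gene of a list, placed by its log2 fold change relative to the median of all tested features, with CLIP genes in black and other genes coloured by their call; vertical scatter within a row has no meaning. At the reported setting CLIP3 was at 2.47 and CLIP4 at 1.79, near SCG3 (1.71), and the lowest point was TUBB2B (-1.51). SCG3 was above CLIP4 after TMM scaling (1.91 against 1.80), with a pseudocount of 0.1 (2.84 against 1.94) and with voom (3.07 against 1.96). MAP2 and TUBA4A were also above CLIP4 with that pseudocount (2.17 and 2.21) and with voom (2.25 and 2.33).

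Over all lists, 114 genes were tested once each, with 14 called higher and 1 lower (11.3% and 1.3% of all features), shares near those of all features. Of these 15 calls, 7 were also made after TMM scaling, 9 after quantile normalization and 14 on the recovered reads. Of the 15, 4 calls were also made with any 1 library left out (MAP2, MAP1A, SCG3 and TUBA4A). MAP1A, SCG3 and TUBA4A were below 1 TPM in both siControl libraries and entered the test only through siCNOT4, so these counts support nothing about the lists. The lists were read against the same fit over all features, and no list was tested as a set.

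Genes next to the CLIP genes were also measured. The gene nearest CLIP3 on one side, THAP8, a DNA-binding THAP-domain gene, had 4.19 and 2.79 TPM in siControl and 11.6 and 12.9 TPM in siCNOT4 (log2 fold change 1.57, limma adjusted p 0.0329). ALKBH6, on the other side, had 56.4 and 60.5 against 89.4 and 99.6 TPM (0.68, limma adjusted p 0.0515). CLIP1 lies between VPS33A, a vesicle-tethering subunit that rose by 1.56 (limma adjusted p 0.0244), and ZCCHC8, a subunit of the nuclear exosome targeting complex (0.09, 0.804). The calls of THAP8 and VPS33A were lost without either siCNOT4 replicate (limma adjusted p 0.214 and 0.267 for THAP8). CLIP4 lies between TOGARAM2 (listed under its older symbol FAM179A) and ALK, both with a mean TPM under 1 and therefore not tested. RNAs annotated within CLIP1, CLIP3 and CLIP4 in RefSeq, such as CLIP1-AS1, were not analysed here. Whether reads were counted by strand is not given in the sources used here, so reads of an overlapping antisense RNA cannot be told apart from those of the CLIP genes.

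The genes around CLIP2 in the Williams-Beuren region had 13 tested members of 18 listed, and none was called higher or lower by limma (12.6% of all features were called). CLDN3, EIF4H and GTF2I had an unadjusted limma p under 0.05 (the first and last named after their values were seen). How many of all features had such a p is not given here. None of the 13 was called on the recovered reads, where 2069 of 14206 features were called. After TMM scaling 1 was called lower, and after quantile normalization 2, against 821 and 1150 of all 14208 features. Without siControl replicate 1 the log2 fold change was 1.33 for EIF4H, -0.19 for RFC2 and 0.23 for GTF2IRD1. Without siControl replicate 2 the values were 0.54, -0.089 and -0.44. Such fits leave 1 siControl library, so their calls are not given for this region. The nearest neighbours of CLIP2, RFC2 and GTF2IRD1, had log2 fold changes of -0.14 (limma adjusted p 0.459) and -0.10 (0.810). RFC2, a subunit of the replication clamp loader, had 205 and 220 TPM in siControl and 192 and 194 TPM in siCNOT4. EIF4H, a translation initiation factor, had 325 and 188 against 484 and 464 TPM (0.94, limma adjusted p 0.0596). The region's median log2 fold change was 0.20, below the 0.50 of all features.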

How the data were processed

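RNA of 4 libraries (siControl and siCNOT4, 2 each) was measured as TPM per feature. The authors deposited TPM values only. Per the submitters' processing notes, FastQC 0.11.2, STAR 2.5.3a, featureCounts and the build hg19 were used, with no roles or settings; the annotation and the use of strand are not given in the sources used here. The members and lists were chosen with earlier results of these data known.

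TPM was tested as log2(TPM + 1) with limma 3.58.1 (R 4.3.3; moderated, with a trend) on the 14208 of 20457 features averaging 1 TPM or more, with Benjamini-Hochberg adjustment and a threshold of 0.05. Fold changes on this scale understate those of low genes. Named genes were the CLIP genes, CNOT4, every CAP-Gly gene, up to 4 called members of each other list with a mean TPM of at least 2 and groups that did not overlap (by size of relative change; the 2 most abundant members where fewer than 2 qualified), the nearest listed gene on each side, and the 3 most alike features. GC3 and lengths came from the longest complete coding sequence of each gene in GENCODE 29.

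TPM values were whole multiples of 1 read within 0.001 for 14206 of the 14208 tested features, and the smallest whole read numbers were used; a common factor cannot be told, so read numbers are lower bounds. Depth was 27.0, 25.2, 28.4 and 28.1 (in units of 1000000) such reads. Alternatives were another pseudocount, filter or scaling, a replicate block, each library left out, and, chosen after seeing the data, voom on these reads and family levels as reads per GENCODE exon length. On simulated data with 200 changed features of 14208, the siCNOT4 against siControl test called 57.5% at a log2 change of 1 (4 false calls) and 100% at 3 (10 false calls). The simulated noise was independent between features and equal in both groups, with no shared shift, and all imposed changes were upward. The data had a median shift of 0.50 and unequal replicate spread (SD 0.48 in siControl, 0.20 in siCNOT4). These rates therefore do not describe the test on the real libraries.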

Additional observations from a re-analysis of the deposited data

How the results depend on the processing

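Limma called 1792 features as reported, 558 with a pseudocount of 0.1, 908 with no filter on low values, 147 at a mean TPM of at least 5, 1406 after TMM scaling, 2176 after quantile normalization and 2069 with voom on the recovered reads. Leaving out 1 library gave 450 to 11311, with 11311 without siControl replicate 1, 8171 without siControl replicate 2, 476 without siCNOT4 replicate 1 and 450 without siCNOT4 replicate 2; the lone library is then assumed to vary like the other group. The 15 calls in the gene lists became 6 with a pseudocount of 0.1, 6 with no filter, 1 at a mean TPM of at least 5 and 9 after TMM scaling, and 4 to 95 with 1 library left out. The log2 fold change of CLIP3 was 3.59 with a pseudocount of 0.1, 2.51 after TMM scaling, 2.36 after quantile normalization and 3.39 with voom, and 2.75 to 3.19 with 1 library left out. That of CLIP4 was 1.96 to 2.63 with 1 library left out, and its call was lost without either siCNOT4 replicate. With 1 library left out, that of CLIP1 ranged from 0.47 to 1.61 and that of CLIP2 from 0.34 to 1.09. CLIP2 has no value under the mean TPM filter of 5. The share of CLIP3 in the family was higher by 24.3 points with recovered reads per GENCODE exon length, added after the data were seen, against 14.8. The 4 CLIP genes kept their direction in these settings. Some other named genes, none of them called, changed sign. After TMM scaling the log2 fold change was -0.23 for AKT1, -0.15 for AKT2, -0.51 for DCTN1, -0.26 for KIF2C, -0.41 for MAP7D1, -0.44 for MAPRE1, -0.33 for STMN1, -0.26 for TBCE and -0.49 for ZCCHC8. After quantile normalization it was -0.23 for DCTN1, -0.21 for MAP7D1 and -0.44 for ZCCHC8, and with voom -0.20 for DCTN1, -0.095 for MAP7D1, -0.12 for MAPRE1, -0.014 for STMN1 and -0.20 for ZCCHC8. GTF2IRD1 ranged from -0.44 to 0.23, highest without siControl replicate 1, and with 1 library left out the range was -0.017 to 0.75 for AKT1, -0.070 to 0.24 for DCTN1, -0.043 to 0.37 for MAPRE1 and -0.12 to 0.29 for ZCCHC8, lowest without siControl replicate 2. With a replicate block, 3655 features and 38 list genes were called, 3 of the latter in the CLIP2 region (all higher). CLIP1 passed with this block (1.04, limma adjusted p 0.0295). Deviations of same-numbered libraries correlated at 0.171, and no label says that a number marks a shared batch, so the numbers were not used as a pairing. The causes of these differences were not tested. The 2 libraries per group limit all of these tests.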
